A study of Homo sapiens with 6 samples.

Results

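The poly(A)-binding protein (PABP) genes PABPC1, PABPC4 and PABPN1 and the PABP-interacting genes PAIP1, PAIP2 and PAIP2B were followed by gene name through LARP1 binding site lists and an mRNA-seq table of HEK293T cells. These 6 genes are among 19211 named in the table, and their 10 named transcripts are among 38438. They were chosen by name and by the RPM of the strong LARP1 site in the PABPC1 5'UTR under mTOR-inactive conditions, so the values of that site are a description and carry no test. HEK293T is a human embryonic kidney line that carries the SV40 large T antigen. LARP1 binding was captured by PAR-CLIP of the endogenous protein, in which RNA carries 4-thiouridine (100 µM for 14 h), is crosslinked to protein by UV light (150 mJ/cm2) and shows T-to-C changes in the reads where crosslinks formed. The growing condition had no mTOR inhibitor and the mTOR-inactive condition had PP242 at 2.5 µM, an inhibitor of the mTOR kinase, in medium with serum and antibiotics for both. The dose is the one in the study's general methods, and the time in PP242 is not given for these libraries in the sources used here. There was 1 PAR-CLIP library per condition, and there were 2 replicate mRNA-seq libraries per condition. The study's methods describe 4-thiouridine for PAR-CLIP only, so the mRNA-seq cells are taken here to have had none.

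PABPC1 and PABPC4 are cytoplasmic proteins that coat the poly(A) tail, bind the initiation factor eIF4G and so join the tail to the capped end of the mRNA. PABPN1 is the nuclear PABP that stimulates poly(A) polymerase and sets tail length. PAIP1 binds PABP and favours translation, whereas PAIP2 and its paralogue PAIP2B displace PABP from poly(A) and repress translation. PABPC1 mRNA is a classic terminal oligopyrimidine (TOP) mRNA, a class that starts with a C followed by pyrimidines and whose translation depends on mTOR. Earlier work reported that LARP1 binds such starts and associates with PABP and poly(A). The study of these data found its 5'UTR sites seldom at TOP starts and mostly at the 3' end of 5'UTRs. The study proposes that LARP1 does not truly bind TOP starts in cells. It also proposes that LARP1 and PABP are linked indirectly, through shared mRNAs.

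Depth could be judged only in part, since the deposited values are scaled to the library. For the other mRNA-seq libraries, depths of 1.04 to 1.06 relative to the first growing library were read from the steps of low values. Only ratios close to equal depth were searched, so a larger difference would not have been found. Of 7 markers of HEK293T, 5 were at or above 1 RPKM, with PAX2 at 0.123 and LHX1 at 0.808, and of 12 markers of blood, liver, gut, fibroblast and endothelium only CDX2 (11.1 RPKM) and COL1A1 (1.80 RPKM) reached 1 RPKM, while CD3E had no value. The growing list holds 3948 sites and the mTOR-inactive list 3947. The study applied an RPM threshold and reports fewer sites for each condition, so a listed site need not be one it counted. Site heights are in RPM, read numbers scaled to library size. For scale, 1 unit is taken here as the RPM at which most sites with a value of exactly 1 in the T-to-C column lie, 0.0388 RPM in the growing list and 0.0353 RPM in the mTOR-inactive list. What that column counts is not documented, so a unit is a yardstick and not a number of reads. Sites under 1 unit make up 73.5% of the growing list and 55.1% of the mTOR-inactive list.

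Of the sites on the 6 genes, 1 could be placed on a sequence that may be printed, and it is shown because it consists almost wholly of T. It lies in the 3'UTR of PAIP2B, in exon 4 of 4 of the main annotated transcript on the minus strand, at chr2:71412697-71412723 of GRCh37 (positions 3445 to 3471 of NM_020459.1, counted from 1). Capitals mark the bases that are not T.

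PAIP2B 3'UTR site: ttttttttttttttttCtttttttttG

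In this site 25 of 27 bases are T, with a longest run of 16. A T run of that length is found in 6464 of 254413 annotated transcripts (2.54%), and the whole sequence, without mismatches, in 3. The study's mapping allowed mismatches, so these counts do not show how many places a read from the site could match. The site was listed only under mTOR-inactive conditions, at 0.113 RPM or 3.20 units. Its T-to-C value was 4.93% of the multiple of RPM (28.32) at which most sites lie, while 56.6% of the sites of that list are within 2% of it.

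PABPC1 carried the highest 5'UTR site of the mTOR-inactive list by RPM, though not by RPM per transcript RPKM. The site covers positions 154 to 187 (34 nt) of NM_002568.3 and was listed at 0.0377 RPM (0.973 units) in growing cells and at 1675 RPM (47440 units) after PP242, with T-to-C values of 99.95% and 99.99% of the multiple. Divided by the RPKM of the transcript and multiplied by 1000, this was 0.185 and 7688. Any 5'UTR site was listed for 0.599% of expressed genes (mean of at least 1 RPKM) in growing cells and 0.65% after PP242, and one of at least 1 RPM for 0.0855% and 0.248%. Among distinct 5'UTR sites that of PABPC1 ranked 39 of 129 in growing cells and 1 of 125 after PP242. By RPM per transcript RPKM it ranked 113 of 129 in growing cells and 21 of 125 after PP242, with sites on transcripts at 0 RPKM counted as higher, and 3 of 78 after PP242 among sites on transcripts of at least 1 RPKM. Among all mRNA sites it ranked 458 of 1932 and 31 of 2021. Under mTOR-inactive conditions it held 11.4% of the 5'UTR RPM, or 15.7% with isoform copies of a site counted once, and 0.585% of the RPM on mRNAs. When RPM was divided by transcript RPKM, which raises sites on transcripts of very low RPKM, its share of the 5'UTR sum was 0.0443%, with transcripts at 0 RPKM left out. Of 227 genes with a 5'UTR site in either list, 31 (13.7%) were at least 10-fold higher and at or above 1 RPM under mTOR-inactive conditions. An unlisted value counted as 0 here, so the 27 of them not listed in growing cells met the 10-fold rule by absence.

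The PABPC1 site does not lie at the start of the transcript. It is not at the 3' end of the annotated 5'UTR either, where the study found most such sites. PABPC1 lies on the minus strand of chromosome 8 (101698044 to 101735037, GRCh37), and its main annotated transcript has a 5'UTR of 505 nt that starts with C inside a pyrimidine run of 12 nt. Counted on that transcript, whose first base may differ from that of NM_002568.3, the site ends 318 nt before the start codon. There 26 of its 34 bases (76.5%) are pyrimidines and 21 (61.8%) are T, against 55.2% pyrimidines in the remainder of the 5'UTR. Of 472 windows of this length in the 5'UTR, 64 (13.6%) are at least as rich in pyrimidines, and shifting the site by up to 20 nt gives 47.1% to 79.4%.

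PABPC4 also has a TOP-like start but no listed LARP1 site under either condition. Its annotated 5'UTR of 839 nt (chromosome 1, 40026381 to 40042462, minus strand) starts with C inside a pyrimidine run of 8 nt. Among annotated main transcripts, 4.71% start with a C followed by 4 pyrimidines. Of the genes with a 5'UTR site of at least 1 RPM, 13 of 28 with such a transcript do so under mTOR-inactive conditions and 1 of 10 under growing conditions. PABPN1 (chromosome 14), PAIP1 and PAIP2 (both chromosome 5) and PAIP2B (chromosome 2) do not.

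The remaining sites on these genes were far under 1 unit. PABPN1 had a site at positions 1038 to 1050 of NM_004643.3, marked as 5'UTR, at 0.0008 RPM (0.0206 units) under growing conditions and none under mTOR-inactive conditions. The annotated PABPN1 5'UTR is 13 nt long, so this position cannot be placed on it. PAIP1 had a coding-region site of 13 nt, listed on its 3 isoforms, at 0.001 RPM (0.0283 units) under mTOR-inactive conditions and none under growing conditions. The values of the PABPN1 site were listed on 2 genes and those of the PAIP1 site on 4 genes. PAIP2, like PABPC4, had no listed site.

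By gene, 2 of 6 had a listed site under growing conditions, where 9.51% of expressed genes had one, and 3 of 6 under mTOR-inactive conditions, where 10.4% did. At a height of 1 RPM or more, 0 of 6 had one under growing conditions, where 1.62% of genes did, and 1 of 6 under mTOR-inactive conditions, where 3.54% did. That 1 gene is PABPC1, whose site was used in choosing the genes, and the 3 of 6 includes it too. These counts are therefore a description and carry no test. A gene without a listed site may still be bound at a level under what the lists hold.

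**Figure D1:**
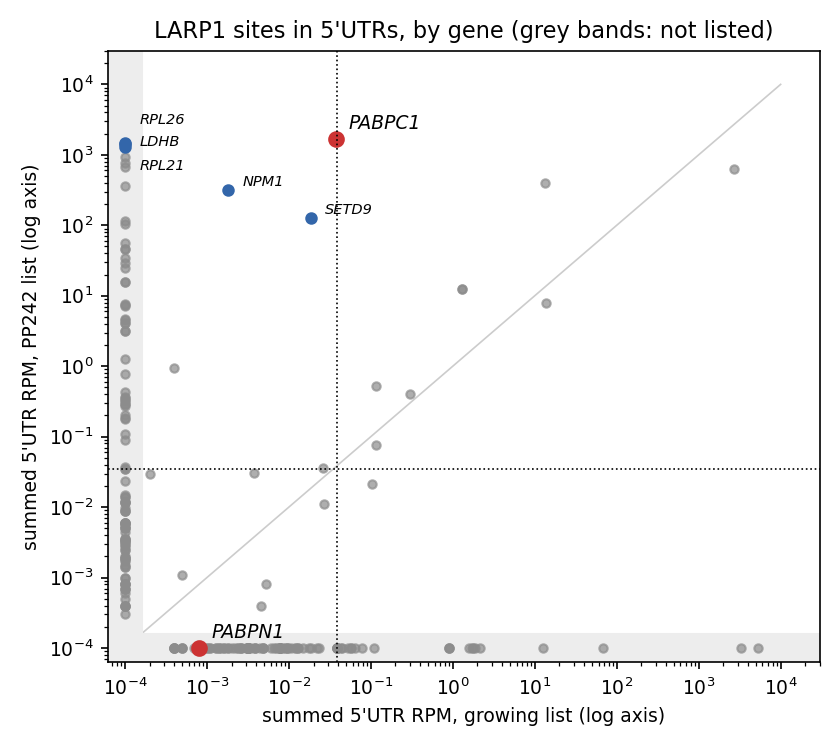
Summed RPM of 5'UTR sites per gene under growing (x axis) and mTOR-inactive (PP242, y axis) conditions, both on log axes, for the 227 genes with such a site. Grey bands hold genes not listed in that condition, dotted lines mark 1 unit, the solid line marks equal values, red points are PABPC1 and PABPN1, and blue points are the 5 genes nearest to PABPC1. PABPC1 is at 1 unit in the growing list and above every other gene in RPM in the mTOR-inactive list.

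The genes nearest to PABPC1 in their pair of 5'UTR values were taken by distance on log10(RPM + 0.001) over the 2 PAR-CLIP libraries. SETD9, a SET-domain gene with a mean of 1.37 RPKM under growing conditions, was nearest, at 0.0185 and 127 RPM (distance 1.16). NPM1, a nucleolar protein, followed at 0.0018 and 320 RPM (distance 1.35). The ribosomal protein genes RPL26 (1485 RPM) and RPL21 (1272 RPM) and LDHB, a lactate dehydrogenase subunit (1447 RPM), were not listed under growing conditions (distance 1.59 for each). The growing values of PABPC1 (0.0377 RPM) and of these genes were all under 1 unit, and the order rests largely on them. Under mTOR-inactive conditions alone, RPL26, LDHB and RPL21 were closer to PABPC1 (1675 RPM) than SETD9 and NPM1 were. Of the 20 genes with a 5'UTR site in both lists, 13 were higher under mTOR-inactive conditions. Of the 35 genes with at least 1 RPM under mTOR-inactive conditions, 27 were not listed under growing conditions.

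The mRNA levels of PABPC1, PAIP2 and PAIP2B rose slightly after PP242, the most by 1.20-fold, and no change passed the test for PABPC4, PABPN1 and PAIP1. Levels are in RPKM, reads scaled to transcript length and library size, which allows genes to be compared, and changes were tested with limma on log2(RPKM + 1) with Benjamini-Hochberg adjustment over 21014 transcripts. All 10 member transcripts passed the minimum mean of 1 RPKM. Of them, 3 rose and 0 fell, where 3.48% of all transcripts rose and 6.45% fell (9.93% in either direction). The libraries of the conditions did not overlap for 5 of the 10, and 58.5% of all transcripts showed this. RPKM is scaled to the library, so a change in total mRNA per cell would not be seen. With 2 libraries against 2, an exact permutation test cannot go below p = 0.333.

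PABPC1 had the highest level of the 6 genes. It was at 202.0 and 206.3 RPKM in growing cells and at 218.1 and 217.6 RPKM after PP242. Both mTOR-inactive libraries lay above both growing libraries. The change was 0.09 (SE 0.021) on the log2(RPKM + 1) scale, with a limma adjusted p of 0.0488, and it was past the threshold in 5 of 13 alternative fits, with adjusted p from 0.0329 to 0.191. The PABPC1 mRNA level was 1.07 times higher after PP242. PABPC3, an intronless copy of PABPC1, was at 5.80% to 5.85% of the PABPC1 level in each library. Reads matching several loci were divided evenly, so its own expression cannot be told apart from PABPC1 reads.

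PABPC4 did not pass the threshold in any transcript. Its highest, NM_001135653.1, was at 23.2 and 22.7 RPKM in growing cells and 23.4 and 23.6 RPKM after PP242, which do not overlap. The change was 0.03 (SE 0.027), with a limma adjusted p of 0.482. NM_001135654.1 and NM_003819.3 changed by 0.0062 and 0.02, with overlapping libraries. The PABPC1 level was 8.69 and 9.08 times that of PABPC4 under growing conditions and 9.32 and 9.21 times under mTOR-inactive conditions.

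PABPN1, the nuclear PABP, was at 41.3 and 39.6 RPKM in growing cells and 38.6 and 37.5 RPKM after PP242. Both mTOR-inactive libraries lay below both growing ones, but the change of -0.09 (SE 0.032) was not past the threshold (limma adjusted p = 0.148). BCL2L2-PABPN1, a read-through transcript that contains PABPN1 sequence, was at 41.1 to 44.6 RPKM over the 4 libraries and changed by -0.09 (limma adjusted p = 0.103). Reads of these transcripts cannot be told apart where they overlap.

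PAIP1, the activator among the partners, showed no detectable change. Its highest transcript, NM_006451.4, was at 9.76 and 10.6 RPKM in growing cells and 9.72 and 10.3 RPKM after PP242, and the libraries overlapped. The change was -0.02 (SE 0.046, limma adjusted p = 0.781), and the other isoforms, NM_182789.3 and NM_183323.2, changed by 0.0062 and 0.00073 with overlapping libraries.

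Both repressors rose. PAIP2 (NM_016480.3) was at 28.9 and 29.9 RPKM in growing cells and 32.9 and 33.8 RPKM after PP242. The groups did not overlap, and the level was 1.13 times higher (change 0.17, SE 0.029, limma adjusted p = 0.0217). A PAIP2 transcript that has no gene name in the table, NM_001033112.1, was at 23.6 and 24.2 against 26.4 and 27.3 RPKM, a change of 0.16 (limma adjusted p = 0.0274), and since isoforms share reads it is not an independent value. PAIP2B was the lowest of the 6, at 2.53 and 2.57 RPKM in growing cells and 3.04 and 3.10 RPKM after PP242. Its groups did not overlap either, and the level was 1.20 times higher (change 0.20, SE 0.035, limma adjusted p = 0.0256). The call was past the threshold in 10 of 13 alternative fits for PAIP2 (adjusted p up to 0.103) and in 7 of 12 for PAIP2B (adjusted p up to 0.108).

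**Figure D2:**
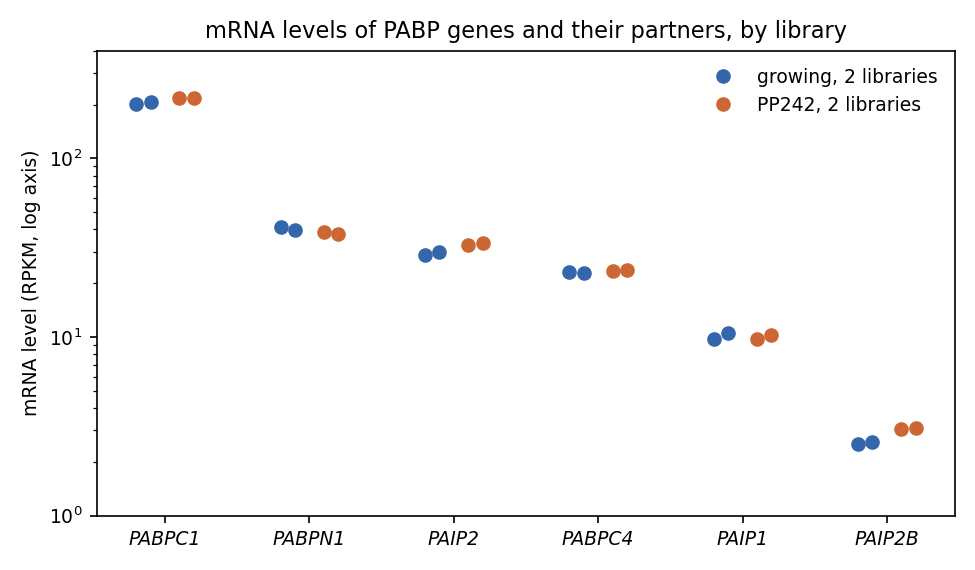
mRNA level in RPKM (log axis) of the highest transcript of each of the 6 genes, with 1 point per library, blue for growing and orange for mTOR-inactive (PP242) conditions. PABPC1 lies between 202.0 and 218.1 RPKM and PAIP2B between 2.53 and 3.10 RPKM, and the shifts between colours are small beside the distances between genes.

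The order of the levels was PABPC1, PABPN1, PAIP2, PABPC4, PAIP1 and PAIP2B in each library, taking the highest transcript of each gene, and no library of a gene overlapped with any library of its neighbour. By mean level PABPC1 ranked 173 of 20062 genes, PABPN1 1301, PAIP2 1665, PABPC4 2256, PAIP1 4692 and PAIP2B 9075. The ratio of PAIP2 to PAIP1 was 2.96 and 2.83 under growing and 3.39 and 3.29 under mTOR-inactive conditions. The ratio of PABPC1 to PAIP2 was 6.98 and 6.89 under growing and 6.62 and 6.44 under mTOR-inactive conditions. These ratios restate the levels above and were not tested on their own.

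The related genes were read by the transcript with the highest RPKM, where over all genes tested 3.94% rose and 8.30% fell with a median change of -0.0048. Of 4 other PABP genes tested, 0 rose and 1 fell, and the median change was 0.05. PABPC4L, a PABPC4-like gene, fell by 0.38 (SE 0.050, limma adjusted p = 0.0104), from 4.72 and 5.25 to 3.57 and 3.66 RPKM. PABPC3 changed by 0.08, PABPC1L by 0.07 and ZC3H14, a nuclear zinc-finger PABP, by 0.02, none past the threshold.

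Of 34 other partners (initiation and termination factors that work with PABP, and proteins with PABP-binding motifs), 1 rose and 3 fell, with a median change of -0.02. EIF4B, which assists the helicase eIF4A, rose from 89.8 and 90.5 to 97.4 and 100.7 RPKM (change 0.13, limma adjusted p = 0.0290). TOB2 fell by 0.44 and TOB1 by 0.26; both proteins bind PABP and recruit the CCR4-NOT deadenylase. GSPT2, a form of the release factor eRF3, fell by 0.23 from a low level of 1.75 to 1.88 RPKM. YBX1, an mRNA-packaging protein and the highest of the list at 703 to 762 RPKM, changed by 0.08 and was not past the threshold.

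Of 24 deadenylation genes, 1 rose and 6 fell, with a median change of -0.03; TOB1 and TOB2 are in this list too. BTG3 fell by 0.60 (SE 0.038, limma adjusted p = 0.0013), from 9.47 and 9.86 to 5.86 and 6.18 RPKM. BTG2 fell by 0.51 (SE 0.042, limma adjusted p = 0.0026), from 5.00 and 5.31 to 3.23 and 3.40 RPKM. These are members of the BTG/TOB family, which links deadenylases to their targets. CCRN4L, which encodes nocturnin, fell by 0.26. BTG1 moved the other way, from 6.39 and 6.71 to 8.07 and 7.58 RPKM (change 0.22, limma adjusted p = 0.0282). The CCR4-NOT subunits with the highest levels, CNOT1, RQCD1 and C2orf29, changed by 0.04, -0.05 and -0.06, none past the threshold.

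Of 28 polyadenylation genes tested, 0 rose and 2 fell, with a median change of -0.03. CLP1, an RNA kinase of the cleavage complex, fell by 0.23, and RBBP6, a cleavage factor, fell by 0.16. The poly(A) polymerase PAPOLA changed by 0.06, NUDT21, a subunit of cleavage factor I, by 0.02 and SNW1 by 0.06, none past the threshold.

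**Figure D3:**
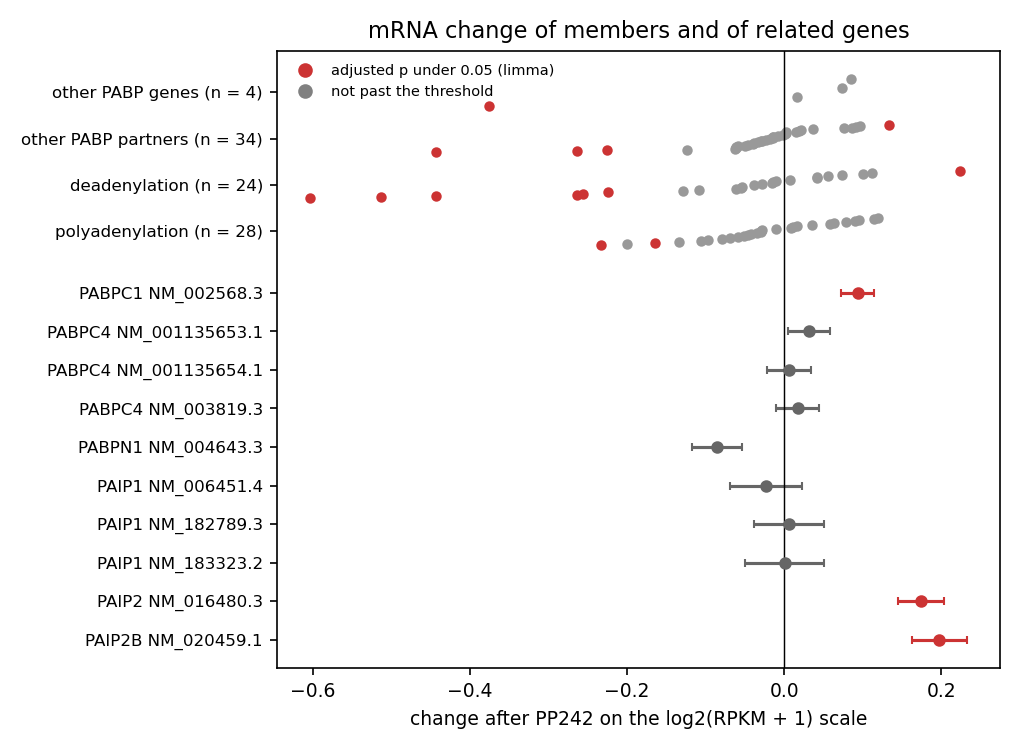
Change in mRNA level after PP242 on the log2(RPKM + 1) scale. The lower rows give the 10 transcripts of the 6 genes with bars of 1 standard error, the upper rows give 1 point per gene of the related lists, and red marks an adjusted p under 0.05 in limma. PABPC1, PAIP2 and PAIP2B lie to the right of 0, and BTG3, BTG2 and TOB2 lie farthest to the left.

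LARP1 sites of at least 1 RPM on the related genes lay outside 5'UTRs. Under growing conditions EIF4G2, an eIF4G-like factor, had a coding-region site at 1867 RPM and EIF4A1, the eIF4A helicase, at 937 RPM. Under mTOR-inactive conditions all sites of EIF4G2 came to 0.330 RPM, and EIF4A1 had 10.2 RPM at another coding-region position. CNOT7, a catalytic CCR4-NOT subunit, had a coding-region site at 998 RPM only in the mTOR-inactive list, and GSPT1, the main form of eRF3, had 3'UTR sites at 94.9 and 165 RPM, also listed only there. CNOT1 (67.1 RPM, growing) and RBM3, a cold-induced RNA-binding protein (8.67 RPM, mTOR-inactive), had T-to-C values of 0.0102% and 0.0582% of the multiple, and their values were also listed on another gene, as were those of EIF4A1.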

How the data were processed

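The authors removed linkers and mapped reads to the GRCh37 transcriptome with Bowtie (version not given in the sources used here). For mRNA-seq they kept perfect matches, divided multi-mapped reads evenly and deposited RPKM per transcript and library. For PAR-CLIP they clustered reads and deposited site heights as RPM and, as a ratio, RPM divided by transcript RPKM and multiplied by 1000. A deposited T-to-C column is not described and was treated as a score. No read totals were used, so no counting error is given.

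Of 39711 lines, 1273 repeats were dropped. Transcripts that averaged 1 RPKM or more were tested on log2(RPKM + 1) with limma 3.58.1 in R 4.3.3 (eBayes with trend, Benjamini-Hochberg, threshold 0.05). The fit was also run on simulated data, with changes larger than those called for the members. That run does not show how well changes as small as theirs are called. PAR-CLIP, with 1 library per condition, was not tested. Other steps used Python 3.11.15 with pandas 2.3.3, scipy 1.17.1 and GENCODE annotation lifted to GRCh37.

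The members and lists were chosen with earlier results of these data known. The text names all members, the 5 genes nearest to PABPC1, and from each list genes past the threshold (up to 5 per direction), with a site of at least 1 RPM, or among the 3 highest. Alternatives were other pseudocounts, filters and scalings, fits with a replicate block, without trend or per gene, and leaving out each library.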

Additional observations from a re-analysis of the deposited data

How the results depend on the processing

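Of 21014 transcripts, 2087 were past the threshold. The count was 120 without the filter on low values, where near-zero transcripts enter the fit, and 863 to 1060 when 1 library was left out. PABPC1 lost its call without any 1 of the 4 libraries, as did PAIP2B, and PAIP2 lost it without growing replicate 1 or mTOR-inactive replicate 2; the lone library of a condition was then assumed to vary like the others. All 3 lost it without the filter, and PABPC1 also with a pseudocount of 10, quantile normalization or no trend. The directions of these 3 held in each fit; PAIP2B has no value at a minimum mean of 5 RPKM. The labels share replicate numbers, but same-numbered libraries hardly deviate together (r = 0.040 across transcripts). A replicate block gave 2135 calls and changed none for the 6 genes.

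With sites of at least 1 RPM, the members with a site fell from 3 to 1 under mTOR-inactive and from 2 to 0 under growing conditions, and without sites whose values are listed on another gene the growing count was 1. The PABPC1 share of 5'UTR RPM in the mTOR-inactive list was 11.4%, 15.7% with 1 transcript per gene, 11.7% without values listed on another gene, and 0.0443% when RPM was divided by transcript RPKM.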
